A study of Mus musculus with 24 samples.

Results

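The BMP genes described here are 10 named genes of the deposited table, taken by name, with no threshold on a measured value. They are the ligands *Bmp2*, *Bmp4*, *Bmp5* and *Bmp7*, the extracellular antagonist *Nog* (noggin), the inhibitory Smads *Smad6* and *Smad7*, and the target genes *Id1*, *Id2* and *Id3*. All 10 were present among the 22889 entries, and 55 further genes of the same pathway, from lists of ligands, receptors, Smads, antagonists, target genes and Id partners, served for comparison.

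BMPs are secreted ligands of the TGF-beta superfamily that bind paired type I and type II receptors, which phosphorylate Smad1, Smad5 and Smad9 and send them with Smad4 to the nucleus. *Id* genes are direct targets of these Smads and encode helix-loop-helix proteins without a DNA-binding region, which sequester the E proteins that proneural factors need as partners, while noggin binds the ligands outside the cell and the inhibitory Smads form a feedback loop inside it. In the neural tube BMPs spread from the roof plate and the overlying ectoderm and pattern dorsal cell types, and motor neurons form ventrally, where sonic hedgehog dominates.

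RNA was sequenced from sorted cells of 2 kinds of mouse embryonic stem cell cultures, with 6 samples per group and 24 in all. Oculomotor (OMN) cultures came from an *Islet1*-GFP line with a *Phox2a* transgene driven by a nestin enhancer, whose activity is limited to neuronal progenitors, and were patterned for 5 days with 250 nM SAG, an agonist of Smoothened, and 100 ng/ml FGF8. Spinal (SC) cultures came from an *Hb9*-GFP line without that transgene and were patterned for 5 days with 500 nM SAG and 100 nM retinoic acid. From each culture a GFP-positive fraction, which holds the reporter-marked motor neurons, and a GFP-negative fraction, which holds all remaining cells, were sorted. Line, reporter, transgene and patterning factors changed together between the cultures, so their parts in any difference between them cannot be told apart. Nothing in the labels says that the 6 samples of a group were separate cultures, and p values therefore measure only the spread between these samples, which may be technical.

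The estimated depth ran from 752529 to 7675428 reads per sample, and replicates 5 and 6 of every group were deeper (4822576 to 7675428) than replicates 1 to 4 (752529 to 4642207). The 8 motor neuron markers summed to 378 to 820 RPKM (reads scaled to transcript length and to the mapped reads of the sample) in OMN GFP-positive and 10.2 to 36.6 RPKM in OMN GFP-negative samples, where *Chat* was listed at 0 in all 6. In the spinal fractions the same sums were 55.8 to 302 and 7.06 to 83.3 RPKM. They overlapped through pair 4, in which the sample labelled GFP-negative held the higher sum (83.3 against 55.8 RPKM). Spinal GFP-negative sample 2 had 68.81% of its summed RPKM in 3 gene models, and spinal GFP-positive sample 2 had 17.79% in them. Log2 changes that involve the spinal GFP-negative samples are therefore also given without GFP-negative sample 4, without 3 samples (GFP-negative sample 2 and both of pair 4), or both.

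To place the expression values beside the regulatory sequence, the RefSeq windows around the transcription start (GRCm38.p6, 300 bases, of which 250 lie before the start) were searched on both strands for 4 palindromes that do not contain one another. These were GGCGCC, the GC-rich element bound by Smad1 and Smad5, GTCTAGAC, the Smad box palindrome, and the E boxes CACGTG and CAGCTG. A window was found for 5 of the 10 genes (*Bmp4*, *Bmp5*, *Smad6*, *Id2* and *Id3*). *Id2*, the target gene that rose in OMN GFP-positive cells, held GGCGCC starting 231 bases before the start and CAGCTG 196 bases before it, and *Smad6* held GTCTAGAC starting 4 bases before the start. Both sequences are printed for these matches, which stand in capitals. The *Id2* stretch (chr12:25096244-25096342, minus strand) lies in an intron of a longer annotated *Id2* transcript, and it is cut 10 bases into the next exon. The *Smad6* stretch (chr9:64022050-64022309, minus strand) lies upstream of the gene and ends 10 bases into its first exon.
Id2: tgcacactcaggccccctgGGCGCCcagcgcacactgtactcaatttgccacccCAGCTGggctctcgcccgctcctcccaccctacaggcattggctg
Smad6: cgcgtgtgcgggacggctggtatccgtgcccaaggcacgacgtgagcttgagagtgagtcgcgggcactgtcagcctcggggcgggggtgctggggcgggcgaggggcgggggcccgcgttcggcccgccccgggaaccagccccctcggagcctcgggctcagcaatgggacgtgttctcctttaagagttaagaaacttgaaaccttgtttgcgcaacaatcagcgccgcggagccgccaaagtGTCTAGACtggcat
Among all 32851 windows of this length, 11.9% held GGCGCC, 0.213% held GTCTAGAC, 7.15% held CACGTG and 16.3% held CAGCTG. *Bmp4* held CACGTG 188 bases before its start, and neither *Id3* nor *Bmp5* held any of the 4. A match describes letters in a window and is not evidence of binding.

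Of the 4 ligands, *Bmp7* was the one detected in all 24 samples and the most abundant in most of them. *Bmp7* (chr2:172868012-172940321, minus strand), a broadly expressed ligand, ranged from 2.63 to 5.94 RPKM (median 3.8) in OMN GFP-positive, from 5.06 to 11.8 (median 7.7) in OMN GFP-negative, from 4.17 to 8.63 (median 7.22) in SC GFP-positive and from 1.09 to 7.08 (median 3.04) in SC GFP-negative samples. The OMN GFP-negative and SC GFP-positive groups were the higher ones, and every pair of groups overlapped. It made up a median of 97.0% of the summed ligand RPKM in OMN GFP-positive, 77.2% in OMN GFP-negative, 87.4% in SC GFP-positive and 51.8% in SC GFP-negative samples, and was the highest ligand in 6, 6, 5 and 3 of the 6 samples of these groups.

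The direction of *Bmp7* between fractions was opposite in the cultures, as the plot of same-numbered fractions shows. GFP-positive samples were lower than the GFP-negative samples of the same number in 6 of 6 OMN pairs and higher in 5 of 6 spinal pairs, with pair 4 as the exception. Neither step passed the threshold across all genes (OMN log2 change -0.87, SE 0.32, limma adjusted p = 0.127, and SC log2 change 1.02, SE 0.32, adjusted p = 0.152). The model had no term for pairs, and with the culture and replicate pair as a block the limma adjusted p was 0.0585 and 0.0799. Among 10 tested alternatives other than leaving out single samples, the OMN step passed in 1 (limma adjusted p = 0.0483). The spinal step passed without GFP-negative sample 4 (1.24, limma adjusted p = 0.0407) and not without the 3 spinal samples named above (1.12, adjusted p = 0.0885). The difference between the steps, tested as an interaction, was -1.89 on the log2 scale (SE 0.46, unadjusted p = 0.000402, limma adjusted p = 0.0803). Its adjusted p was 0.0327 with that block, under which 2.04% of all genes passed, 0.0135 without spinal GFP-negative sample 4 (log2 difference -2.10) and 0.0272 without the 3 spinal samples named above (-1.98). No member passed the threshold for the interaction in the main model, in which 0.320% of all genes did. An unadjusted p under 0.05 was reached by 3 of 10 (*Bmp7*, *Bmp4* and *Bmp2*), against 7.13% of all genes.

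*Bmp2*, a ligand known from extraembryonic endoderm and mesoderm among other tissues, was low in 3 groups and higher in the spinal GFP-negative cells. *Bmp2* (chr2:133552159-133562885, plus strand) was listed at 0 in 5 of 6 OMN GFP-positive samples and at 0.458 RPKM in the other (sample 2). It ranged from 0 to 1.22 RPKM (median 0.499) in OMN GFP-negative, from 0 to 0.432 (median 0.205) in SC GFP-positive and from 0 to 7.93 (median 2.16) in SC GFP-negative samples, where it rested on 0 to 200 recovered reads per sample. All SC GFP-negative samples but sample 4, which was listed at 0, exceeded every SC GFP-positive sample, with 1.32 to 7.93 RPKM. Between the spinal fractions *Bmp2* was the 1 member of 10 that passed the threshold, where 1.23% of all genes did (0.830% lower), and was lower in GFP-positive cells (log2 change -1.47, SE 0.34, limma adjusted p = 0.0263).

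The *Bmp2* call depended on single samples and on the offset added to the RPKM. Its limma adjusted p ranged from 0.00027 (without SC GFP-negative sample 4) to 0.0699, and rose above 0.05 when any of SC GFP-negative samples 1, 2 and 6 or SC GFP-positive samples 2, 3 and 5 was left out. With an offset of 0.1 RPKM the log2 change was -2.88 (limma adjusted p = 0.106), and in replicates 1 to 4 alone it was -1.24 (adjusted p = 0.364). With the culture and replicate pair as a block, under which 2.93% of all genes passed, *Bmp2* was again the 1 member called (limma adjusted p = 0.0349). Without the 3 spinal samples named above the log2 change was -1.74 (limma adjusted p = 0.00103). In OMN cultures *Bmp2* was lower in the GFP-positive sample of 5 of 6 pairs and equal in the sixth, where both were at 0.

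*Bmp4*, the ligand best known from dorsal ectoderm and roof plate, stayed low. *Bmp4* (chr14:46383520-46390669, minus strand) was listed at 0 in 4 of 6 OMN GFP-positive samples (0 to 0.527 RPKM), and ranged from 0 to 1.81 (median 1.24) in OMN GFP-negative, from 0.117 to 5.8 (median 0.825) in SC GFP-positive and from 0 to 1.48 (median 0.318) in SC GFP-negative samples. The highest values were SC GFP-positive samples 1 and 2, at 3.69 and 5.8 RPKM, and all groups overlapped. Between the GFP-positive groups the log2 change was -1.11 (SE 0.39, limma adjusted p = 0.308), which did not pass. Between the OMN fractions it was -0.83 (SE 0.37, limma adjusted p = 0.215), and it passed in 1 of 10 tested alternatives (adjusted p = 0.00505). Between the spinal fractions it was 0.78 (SE 0.37, limma adjusted p = 0.462), and 0.94 without SC GFP-negative sample 4 (0.285). The interaction was -1.61 (SE 0.52, limma adjusted p = 0.293), and -1.78 without that sample (0.115). GFP-positive samples were lower in 4 of 6 OMN pairs and higher in 4 of 6 spinal pairs.

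*Bmp5* (chr9:75775364-75900310, plus strand), a close relative of *Bmp7*, was at or near the limit of detection. It was listed at 0 in all 6 OMN GFP-positive samples, in 4 of 6 OMN GFP-negative samples and in 5 of 6 samples of each spinal group, with a highest value of 0.412 RPKM, or 8 recovered reads. Between the GFP-positive groups it was not tested, since fewer than 2 of those samples were above 0.

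**Figure D1:**
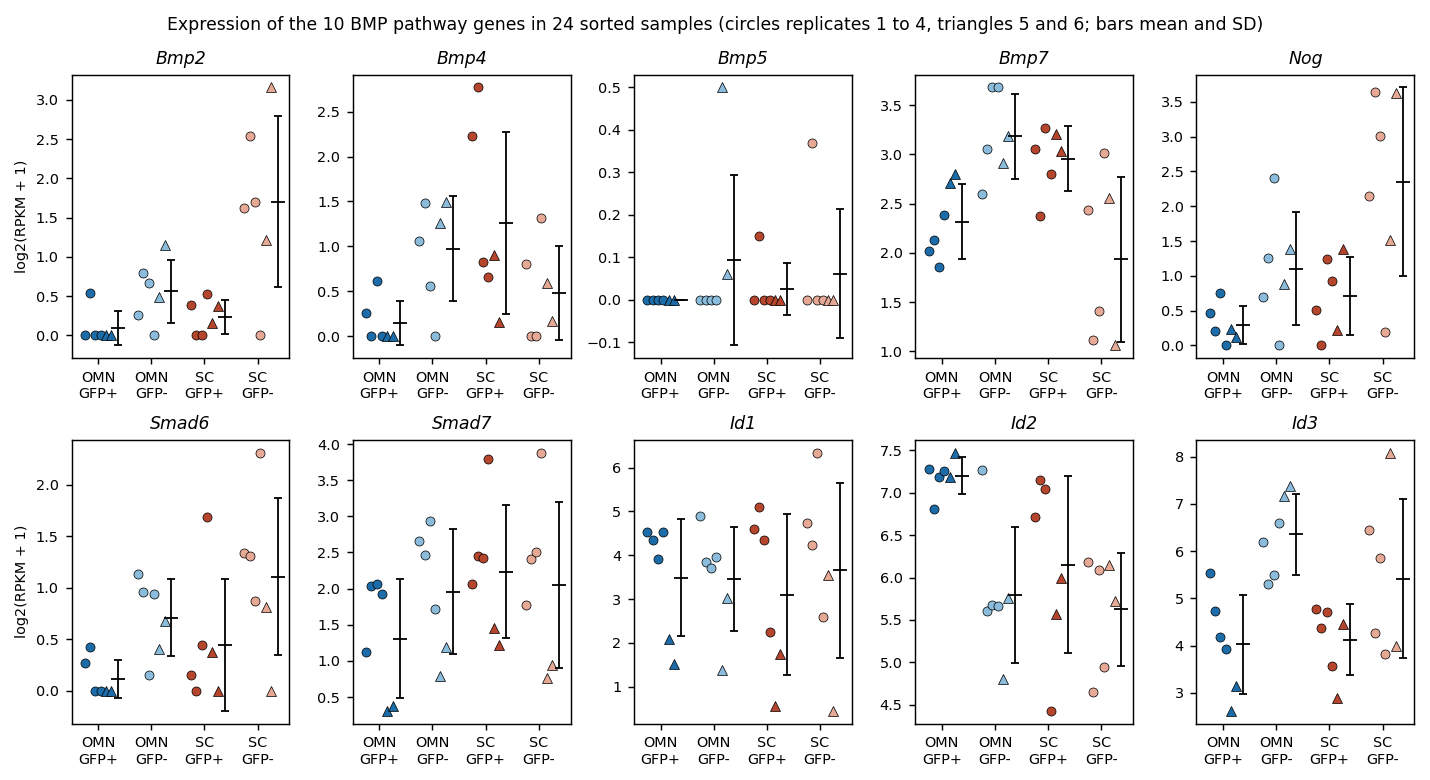
Each panel plots log2(RPKM + 1) of 1 of the 10 genes in the 6 samples of each group, with circles for replicates 1 to 4, triangles for replicates 5 and 6, and bars for the mean and SD. *Id2* lies between 112 and 176 RPKM in the OMN GFP-positive samples, *Bmp2* and *Nog* are highest in SC GFP-negative samples, and the triangles of *Id1* and *Smad7* lie low.

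*Nog* followed *Bmp2* across the samples. *Nog* (chr11:89300638-89302332, minus strand) ranged from 0 to 0.692 RPKM (median 0.172) in OMN GFP-positive, from 0 to 4.33 (median 1.12) in OMN GFP-negative, from 0 to 1.61 (median 0.664) in SC GFP-positive and from 0.139 to 11.5 (median 5.23) in SC GFP-negative samples. In SC GFP-negative samples 1, 2, 3, 5 and 6 it was at 1.84 to 11.5 RPKM, above every SC GFP-positive sample, while sample 4 was at 0.139. The spinal step was -1.64 on the log2 scale (SE 0.48, limma adjusted p = 0.108) and did not pass. Its adjusted p was 0.041 with the replicate number as a block, 0.0568 with a block for each culture and replicate pair, 0.00645 without SC GFP-negative sample 4 (log2 change -2.07) and 0.0196 without the 3 spinal samples named above (-1.90).

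Over the 24 samples the Pearson correlation of *Nog* with *Bmp2* was 0.91, the highest among the 10 genes, and that of *Bmp2* with *Bmp7* was -0.62. These are descriptions over samples that share 4 groups and unequal depths. By the same measure over 11951 genes with a mean of at least 1 RPKM, the genes most like *Bmp2* were *BC025446* (0.95), *Lpar3* (0.93) and *Pdgfra* (0.93), and those most like *Nog* were *BC025446* (0.90), *Cubn* (0.89) and *Frzb* (0.89).

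Endoderm markers were highest in the group in which *Bmp2* and *Nog* were highest, as were neural progenitor and floor plate markers by their median sums. The summed RPKM of 6 endoderm genes (*Sox17*, *Gata4*, *Gata6*, *Afp*, *Ttr* and *Epcam*) was 0 to 2.3 in OMN GFP-positive, 16.3 to 88.6 in OMN GFP-negative, 1.07 to 57.0 in SC GFP-positive and 54.1 to 306 in SC GFP-negative samples. *Afp* was at 0 in all samples of both GFP-positive groups. *Sox17*, *Gata4* and *Gata6* were above 0 in all 6 SC GFP-negative samples, with medians of 6.91, 10.7 and 19.2 RPKM. In OMN GFP-negative samples the medians of *Sox17*, *Gata4* and *Gata6* were 0.563, 1.01 and 1.23 RPKM. The lowest sum among SC GFP-negative samples was that of sample 4, in which *Bmp2* was at 0. The highest, 306 RPKM, was that of sample 6, in which *Bmp2* was at 7.93 RPKM. Between them, *Bmp2* was at 4.82 RPKM in sample 2 (sum 65.2 RPKM) and at 1.32 RPKM in sample 5 (sum 92.8 RPKM). In OMN GFP-negative samples 1 and 2 the sums were 82.9 and 88.6 RPKM with *Bmp2* at 0.194 and 0.725 RPKM, against 65.2 RPKM with *Bmp2* at 4.82 RPKM in SC GFP-negative sample 2. *Epcam*, which other epithelia and pluripotent cells also express, had the highest median of the 6 markers in OMN GFP-negative and SC GFP-positive samples (26.4 and 6.45 RPKM). Its mean was 38.3 and 14.4 RPKM there, where the sums of the 6 had means of 49.0 and 16.9 RPKM. In SC GFP-negative samples *Ttr* had the highest median (36.9 RPKM, range 0.193 to 218). Its mean there was 58.7 RPKM, and that of the sum was 117 RPKM. Single genes thus held much of these sums. The median neural progenitor sums were 174, 285, 315 and 980 RPKM in OMN GFP-positive, OMN GFP-negative, SC GFP-positive and SC GFP-negative samples. Floor plate sums had medians of 13.9, 59.9, 16.6 and 63.3 RPKM in the same order. Sample 4 was the lowest SC GFP-negative sample in both lists, at 190 and 9.63 RPKM. The part of these markers in the *Bmp2* and *Nog* values was not tested. In bulk samples, fewer cells of a type and less RNA per cell cannot be told apart.

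**Figure D2:**
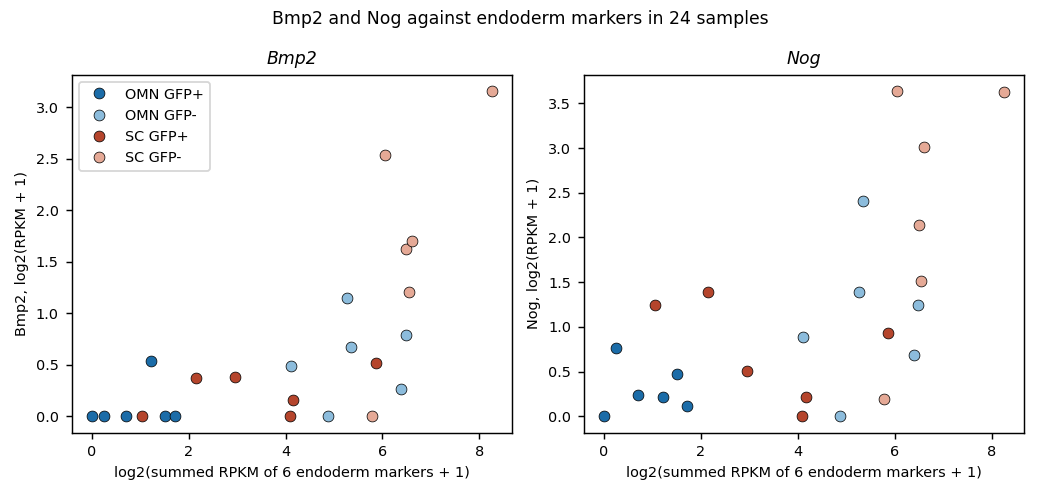
The panels plot log2(RPKM + 1) of *Bmp2* (left) and *Nog* (right) against log2 of the summed RPKM of 6 endoderm markers plus 1, with 1 point for each of the 24 samples, colored by group. SC GFP-negative samples, at 54.1 to 306 RPKM of the markers, hold the highest values of both genes, and OMN GFP-positive samples, at 0 to 2.3 RPKM, lie near 0.

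*Smad6*, which blocks BMP receptor signaling in particular, was low, with medians of 0 and 1.5 recovered reads in the OMN and SC GFP-positive and 8 and 12.5 in the GFP-negative samples. *Smad6* (chr9:63953076-64022059, minus strand; its start is the printed sequence) ranged from 0 to 0.339 RPKM (median 0) in OMN GFP-positive, from 0.109 to 1.18 (median 0.764) in OMN GFP-negative, from 0 to 2.24 (median 0.207) in SC GFP-positive and from 0 to 3.96 (median 1.15) in SC GFP-negative samples. In OMN cultures the GFP-positive sample was the lower one in 6 of 6 pairs, although the groups overlapped. The log2 change was -0.60 (SE 0.30, limma adjusted p = 0.311), and with the culture and replicate pair as a block the adjusted p was 0.0341, so that 3 of 10 members then passed between the OMN fractions, where 16.4% of all genes passed under that block. In spinal cultures the step was -0.66 (SE 0.30, limma adjusted p = 0.442, and 0.064 with the same block). It was -0.42 without SC GFP-negative sample 4 and -0.56 without the 3 spinal samples named above (limma adjusted p = 0.581 and 0.251).

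*Smad7*, which blocks both BMP and TGF-beta receptors, differed between replicate sets in every group. It ranged from 0.242 to 3.2 RPKM (median 2.0) in OMN GFP-positive, from 0.734 to 6.64 (median 3.4) in OMN GFP-negative, from 1.33 to 12.9 (median 3.75) in SC GFP-positive and from 0.69 to 13.7 (median 3.37) in SC GFP-negative samples. Over all groups, replicates 1 to 4 ran from 1.19 to 13.7 RPKM and replicates 5 and 6 from 0.242 to 1.74, and within each group all samples of the first set lay above both of the second. The highest values of *Smad7* (12.9 and 13.7 RPKM) and *Smad6* (2.24 and 3.96 RPKM) in the spinal groups were those of pair 4. *Smad7* passed the threshold in none of the 5 comparisons of the main model.

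*Id2* and *Id3* changed in opposite directions between the OMN fractions, and *Id1* did not pass in any comparison. The printed *Id2* stretch lies inside the gene (chr12:25093799-25097140, minus strand), in an intron of a longer annotated transcript. *Id2* was the most abundant of the 10 genes in OMN GFP-positive cells, where 98.1% of all entries had a lower mean. It ranged from 112 to 176 RPKM (median 148) there, from 26.9 to 153 (median 50.0) in OMN GFP-negative, from 20.6 to 141 (median 83.2) in SC GFP-positive and from 24.2 to 71.4 (median 59.4) in SC GFP-negative samples. OMN GFP-positive samples were the highest and the most uniform (147 ± 20.9 RPKM, mean ± SD, n = 6), and 5 of 6 OMN GFP-negative samples lay below all of them, at 26.9 to 53.3 RPKM. The exception was OMN GFP-negative sample 1, at 153 RPKM.

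Between the OMN fractions *Id2* rose in GFP-positive cells by 1.40 on the log2 scale (SE 0.42, limma adjusted p = 0.0474), and the GFP-positive sample was higher in 6 of 6 pairs, by 0.01 in pair 1 and by up to 2.38. This call was close to the threshold. It remained in 6 of the 24 fits that left out 1 sample (OMN GFP-negative sample 1, SC GFP-positive samples 2, 3 and 4, and SC GFP-negative samples 2 and 4) and was lost when any of the other 18 was left out, with limma adjusted p from 0.0148 to 0.117. The change was 1.08 in replicates 1 to 4 (limma adjusted p = 0.424) and 2.04 in replicates 5 and 6. In spinal cultures GFP-positive samples were higher in 4 of 6 pairs, and *Id2* did not pass there. The difference between the cultures in this step was 0.88 (SE 0.60, limma adjusted p = 0.822) and did not pass either. Without the 3 spinal samples named above the spinal step was 0.46 and the difference 0.95 (limma adjusted p = 0.742 and 0.58), and without SC GFP-negative sample 4 they were 0.39 and 1.01 (0.793 and 0.635).

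*Id3* (chr4:136143497-136145755, plus strand), known from proliferating progenitors and from pluripotent cells, ranged from 5.16 to 45.2 RPKM (median 15.7) in OMN GFP-positive, from 38.4 to 165 (median 83.8) in OMN GFP-negative, from 6.41 to 26.3 (median 20.2) in SC GFP-positive and from 13.3 to 269 (median 37.6) in SC GFP-negative samples. The OMN groups overlapped only between GFP-positive sample 1, at 45.2 RPKM, and GFP-negative samples 2 and 3, at 38.4 and 43.9 RPKM. *Id3* fell by 2.33 on the log2 scale in OMN GFP-positive cells (SE 0.62, limma adjusted p = 0.0247) and was lower in 6 of 6 pairs. The fall was 1.30 in replicates 1 to 4 and 4.38 in replicates 5 and 6 on that scale, and the first did not pass (log2 change -1.30, limma adjusted p = 0.277). Leaving out any of OMN GFP-positive or GFP-negative samples 5 and 6 also raised the adjusted p above 0.05 (at most 0.0679). In spinal cultures *Id3* was lower in the GFP-positive sample of 4 of 6 pairs and did not pass (log2 change -1.29 with an SE of 0.62, limma adjusted p = 0.478). The step differed between the cultures by -1.04 (SE 0.88, limma adjusted p = 0.847), which did not pass. Without the 3 spinal samples named above the spinal step was -1.86 and the difference -0.47 (limma adjusted p = 0.198 and 0.919), and without SC GFP-negative sample 4 they were -1.6 and -0.72 (0.283 and 0.828).

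*Id2* and *Id3* were thus 2 of 10 members that passed between the OMN fractions, where 6.15% of all genes did. With the culture and replicate pair as a block *Id2* and *Id3* passed as well (limma adjusted p = 0.0169 and 0.0347).

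*Id1* (chr2:152736251-152737410, plus strand), the classical immediate target of BMP, ranged from 1.87 to 22.3 RPKM (median 16.8) in OMN GFP-positive, from 1.61 to 28.8 (median 12.7) in OMN GFP-negative, from 0.477 to 33.0 (median 11.6) in SC GFP-positive and from 0.364 to 80.2 (median 14.3) in SC GFP-negative samples. The 4 medians lay close together and the ranges covered one another. As with *Smad7*, the replicate sets differed, with 3.75 to 80.2 RPKM in replicates 1 to 4 and 0.364 to 10.8 in replicates 5 and 6. In OMN GFP-positive cells the sets did not overlap (14.2 to 22.3 against 1.87 to 3.24 RPKM). Depth also differs between these sets. The paper names different sequencing instruments and read lengths, and does not say which samples each served. The part of depth, instrument or read length in the *Id1* and *Smad7* values was not tested.

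The levels of *Id1*, *Id2* and *Id3* each overlapped between the OMN fractions, and the share of *Id2* in their sum did not. *Id2* made up 69.5% to 94.8% (median 81.5%) of the summed RPKM of *Id1*, *Id2* and *Id3* in OMN GFP-positive, 15.8% to 60.2% (median 39.2%) in OMN GFP-negative, 58.5% to 87.1% (median 72.9%) in SC GFP-positive and 20.1% to 77.1% (median 39.5%) in SC GFP-negative samples. The spinal fractions overlapped in this share through SC GFP-negative samples 4 and 6. *Id2* was the highest of the 3 in all 12 GFP-positive samples, and in 3 of 6 samples of each GFP-negative group. The summed level of the 3 genes overlapped, at 153 to 222 RPKM in OMN GFP-positive and 99.3 to 254 RPKM in OMN GFP-negative samples. The share was computed after the values of the single genes were seen and was not tested.

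**Figure D3:**
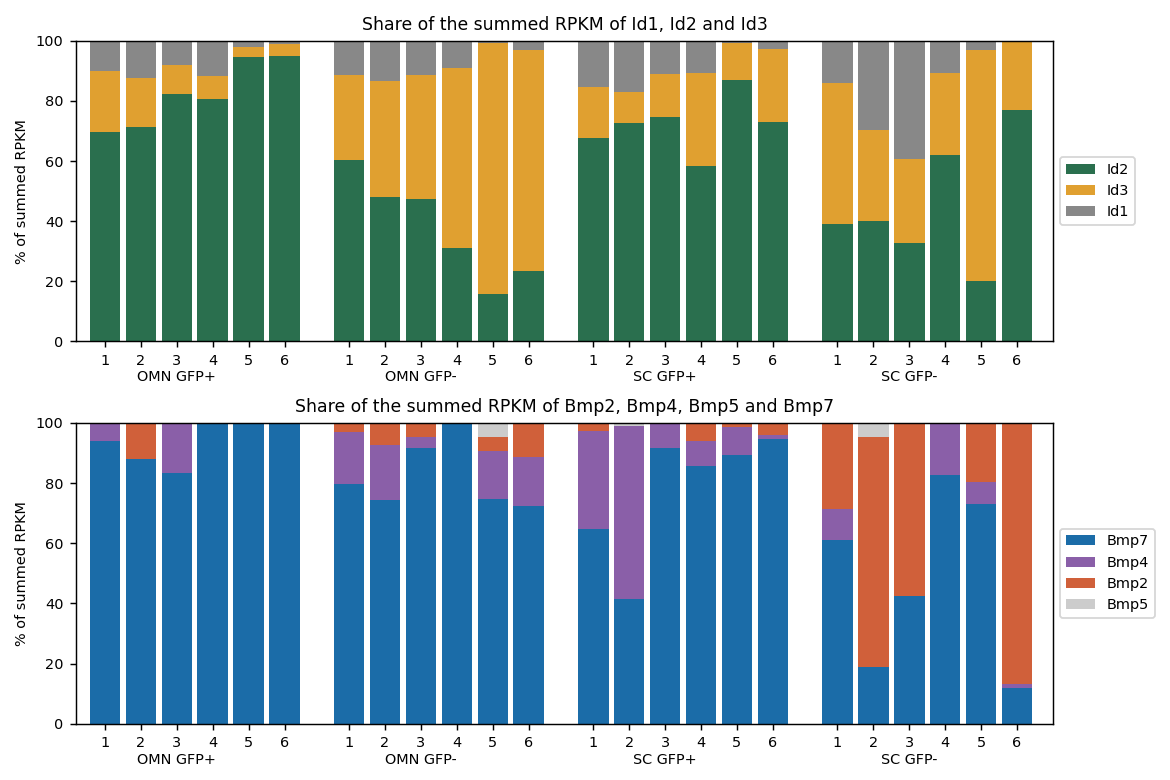
Stacked bars give, for each of the 24 samples (numbered by replicate within its group), the percentage of the summed RPKM of *Id1*, *Id2* and *Id3* (top) and of the 4 ligands (bottom) held by each gene. *Id2* holds 69.5% to 94.8% in OMN GFP-positive samples against 15.8% to 60.2% in OMN GFP-negative samples, and *Bmp2* holds up to 86.7% of the ligands in SC GFP-negative samples.

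Summed markers of neurons, pluripotent cells and proliferation are given beside the *Id* genes. The 6 neuronal markers summed to 629 to 1160 RPKM in OMN GFP-positive against 13.5 to 56 RPKM in OMN GFP-negative samples, and 5 pluripotency markers to 0.315 to 258 against 680 to 9870 RPKM. The 6 proliferation markers summed to 66.4 to 304 against 215 to 507 RPKM. In the spinal fractions, GFP-positive against GFP-negative, the neuronal markers were at 56.3 to 1320 against 32.4 to 175 RPKM, the pluripotency markers at 14.3 to 12400 against 74.4 to 5750 RPKM, and the proliferation markers at 62.5 to 405 against 147 to 421 RPKM. The median pluripotency sum was 922 RPKM in SC GFP-positive and 231 RPKM in SC GFP-negative samples, while *Id3* had the lower median in SC GFP-positive samples. All of these markers were above 0 in at least 1 sample of each group, and their part in the *Id2* and *Id3* values was not tested. Most of the pluripotency sum was *Dppa5a*, with a mean of 5460 RPKM in OMN GFP-negative samples, where the sum had a mean of 5600 RPKM. The 3 genes most like *Id3* over the 24 samples were *Crb2* (0.84), *Pclaf* (0.81) and *Apela* (0.79), and those most like *Id2* were *Tmem2* (0.82), *Carhsp1* (0.82) and *Dbndd1* (0.81).

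**Figure D4:**
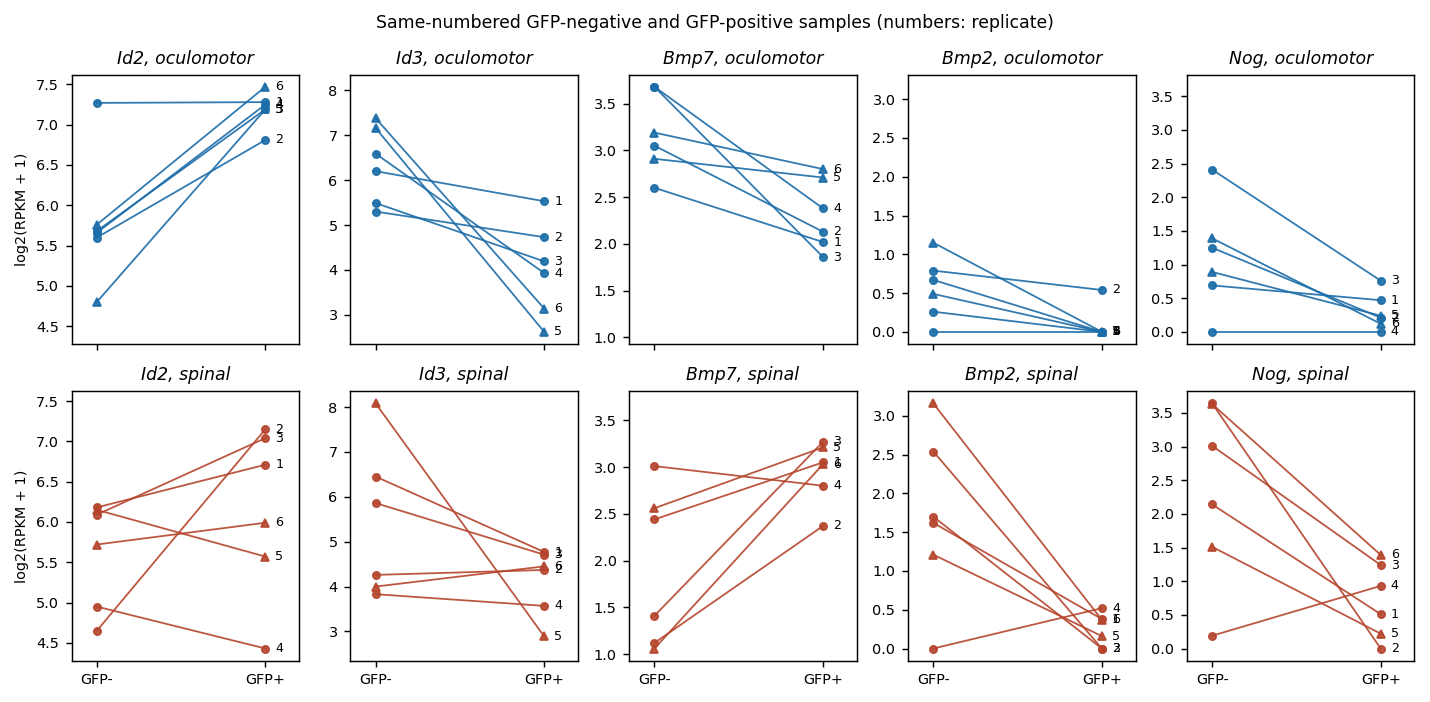
Lines join the GFP-negative and GFP-positive samples of the same replicate number (printed at the right) for *Id2*, *Id3*, *Bmp7*, *Bmp2* and *Nog* in OMN (top) and spinal cultures (bottom), on the log2(RPKM + 1) scale. *Id2* lies higher and *Id3* and *Bmp7* lie lower in the GFP-positive sample of 6 of 6 OMN pairs, while in spinal cultures *Bmp7* lies higher in 5 of 6 pairs and pair 4 runs against the others for *Bmp7*, *Bmp2* and *Nog*.

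The cultures were compared directly in the GFP-positive fractions, and none of the 9 members tested passed the threshold, where 0.603% of all genes did. At an unadjusted p under 0.05 there were 3 of 9, against 10.1% of all genes. For *Id2* the OMN GFP-positive value was the higher one (log2 change 1.05, SE 0.42, 95% confidence interval 0.15 to 1.95, limma adjusted p = 0.394), and for *Bmp7* the lower one (log2 change -0.64, SE 0.28, adjusted p = 0.47), as for *Bmp4* (above). For *Id2* the lowest oculomotor sample, at 112 RPKM, was exceeded by SC GFP-positive samples 2 and 3, at 141 and 131 RPKM. The lowest spinal values of *Id2* were those of SC GFP-positive samples 4, 5 and 6 (20.6, 46.5 and 62.7 RPKM), in which the pluripotency markers summed to 5110, 12400 and 1130 RPKM, against 14.3 to 715 RPKM in samples 1 to 3. Sample 6 also had the highest sum of neural progenitor markers in its group (1490 RPKM), and sample 4 the lowest of motor neuron markers. Samples 4 and 5 held 186 and 296 RPKM of progenitor markers, against 235 to 370 RPKM in samples 1 to 3. Neuronal markers summed to 56.3, 394 and 621 RPKM in samples 4, 5 and 6. Their sums in samples 1, 2 and 3 were 853, 264 and 1320 RPKM. OMN GFP-negative sample 1 had *Id2* at 153 RPKM with a pluripotency sum of 7170 RPKM. The other samples of that group had *Id2* at 26.9 to 53.3 RPKM with sums of 680 to 9870 RPKM. Single genes held most of such sums. In SC GFP-positive samples the pluripotency sums had a mean of 3310 RPKM and *Dppa5a* alone a mean of 3240 RPKM. The highest value of the progenitor marker *Fabp7* there was 1310 RPKM. The part of these markers in the *Id2* values was not tested, and without sample 4 the log2 change was 0.71 (limma adjusted p = 0.472). These members were called under none of the alternatives tried.

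Between the GFP-negative fractions none of the 10 members passed either, where 0.960% of all genes did, and 3 of 10 had an unadjusted p under 0.05, against 11.3% of all genes. *Bmp7* was higher in OMN cells (log2 change 1.25, SE 0.32, limma adjusted p = 0.0639), and *Bmp2* (-1.15, SE 0.34, adjusted p = 0.12) and *Nog* (-1.25, SE 0.48, adjusted p = 0.293) were lower. All 3 passed without SC GFP-negative sample 4 (log2 changes 1.46, -1.49 and -1.68, limma adjusted p = 0.0114, 0.00308 and 0.034). Without the 3 spinal samples named above, *Bmp7* and *Bmp2* passed (limma adjusted p = 0.0297 and 0.00857) and *Nog* did not (0.0759). The share of 0.960% belongs to the main model, in which 213 genes passed. When 1 sample was left out, 115 to 444 genes passed in this comparison, and the number without the 3 spinal samples is given below.

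**Figure D5:**
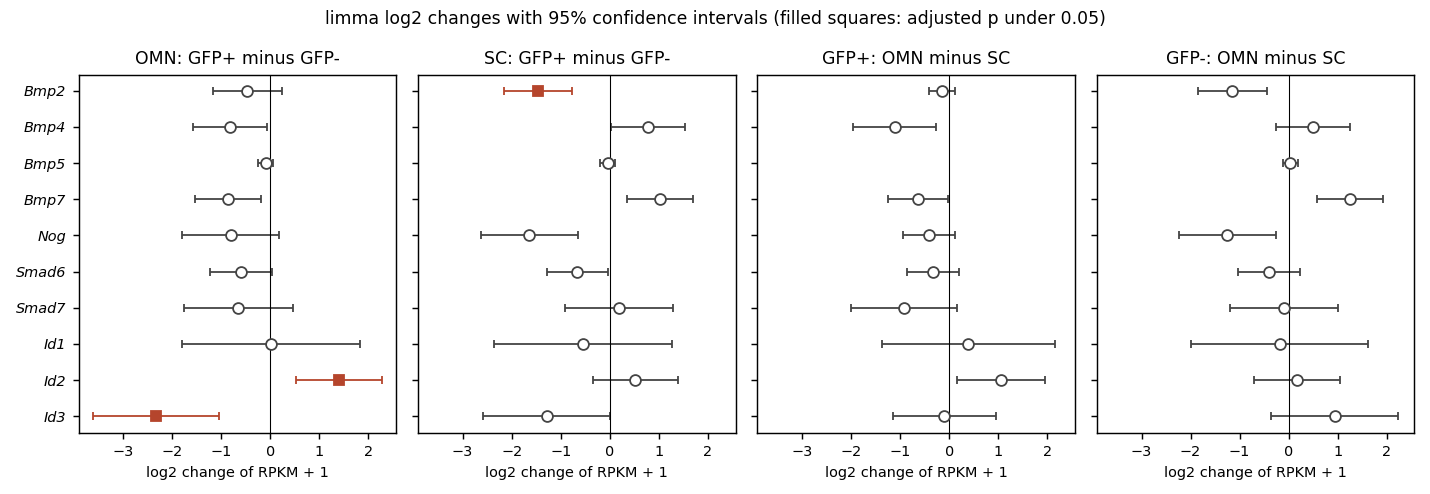
Points give the limma log2 change of RPKM + 1 with its 95% confidence interval for each of the 10 genes in 4 comparisons, with filled squares where the adjusted p over all genes was under 0.05 (*Id2* and *Id3* between the OMN fractions, *Bmp2* between the spinal fractions). *Bmp5* has no point between the GFP-positive groups, where it was not tested.

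Among the 55 other pathway genes, 4 rose and none fell between the OMN fractions in the main model, where 3.81% of all genes rose. They were the type II receptors *Bmpr2* and *Acvr2a*, the BMP coreceptor *Rgmb* and the transducer *Smad1*. Of the 12 receptors and coreceptors 3 were called, 6 had a positive and 6 a negative log2 change, and their median was 0.026. Of the 11 Smads and Smad regulators 1 was called, with a median of -0.042. *Rgmb* ranged from 27.2 to 61.8 RPKM in OMN GFP-positive and from 4.36 to 6.77 RPKM in OMN GFP-negative samples (log2 change 2.49, SE 0.29, limma adjusted p = 6.21e-06). *Acvr2a* ranged from 4.61 to 6.88 against 1.94 to 3.39 RPKM (log2 change 0.99, adjusted p = 0.0175) and *Bmpr2* from 4.13 to 7.2 against 1.38 to 2.87 RPKM (1.07, limma adjusted p = 0.026). In these 3 genes the fractions did not overlap, and in *Fst* (0 to 4.33 against 5.53 to 19.0 RPKM), which did not pass, they did not overlap either. Over all genes, 6.52% did not overlap. *Smad1* overlapped, at 4.75 to 17.0 against 2.51 to 5.69 RPKM (log2 change 1.14, limma adjusted p = 0.018). The *Bmpr2* call was lost when OMN GFP-positive samples 2, 4 or 6 or GFP-negative samples 1 or 5 were left out (limma adjusted p at most 0.0655), and that of *Smad1* without OMN GFP-positive samples 2 or 4 (at most 0.0526). In replicates 1 to 4 alone *Rgmb* and *Smad1* passed, and *Acvr2a* and *Bmpr2* did not. The median log2 change of the 55 genes was -0.02 and that of all genes was 0.

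Between the spinal fractions 1 of the 55 passed in the main model, where 1.23% of all genes did. *Fst* (follistatin), an extracellular antagonist of activins and some BMPs, ranged from 0 to 2.75 RPKM (median 0.169) in SC GFP-positive and from 0 to 169 RPKM (median 42.0) in SC GFP-negative samples (log2 change -4.08, SE 0.78, limma adjusted p = 0.00665). It fell toward GFP-positive cells like *Bmp2*, and kept its call when any 1 sample was left out (log2 change -5.02 without SC GFP-negative sample 4, and -4.94 without the 3 spinal samples named above). Between the OMN fractions its log2 change was -2.48 (SE 0.78, limma adjusted p = 0.0613). The median log2 change of the 55 genes there was -0.009, against 0 over all genes.

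Between the GFP-positive groups 2 of the 49 other pathway genes tested passed in the main model. Both were higher in OMN GFP-positive samples, where 0.353% of all genes were higher. *Rgmb* was at 27.2 to 61.8 RPKM in OMN and 7.52 to 22.4 RPKM in SC GFP-positive samples (log2 change 1.67, limma adjusted p = 0.0298), and *Fstl1*, a secreted follistatin-like protein, was at 35.8 to 61.3 against 2.71 to 20.2 RPKM (1.89, adjusted p = 0.0445). The groups overlapped in neither gene, as was the case for 1.43% of all genes. The *Rgmb* call was lost in 9 of the 12 fits that left out 1 sample, all but those without OMN GFP-positive sample 5 and SC GFP-positive samples 2 and 3 (limma adjusted p at most 0.083). The *Fstl1* call was lost in 10, all but those without SC GFP-positive samples 2 and 4 (at most 0.125). *Fstl1* was at 33.7 to 55.3 RPKM in OMN GFP-negative samples too. In the main model none of the 55 passed between the GFP-negative groups or for the interaction. There 5 and 8 had an unadjusted p under 0.05, against 11.3% and 7.13% of all genes.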

How the data were processed

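RPKM values of 24 mouse RNA-seq samples in 4 groups of 6 were used as the authors deposited them. The authors prepared SMART-seq2 libraries, mapped the reads to mm10 (GRCm38) with HISAT2 (version 2.0.3 in the submitters' processing notes, which also name DESeq2 1.12.4) and computed RPKM with rpkmforgenes, and the annotation they used was not given in the sources used here. Depth was estimated from the steps of low RPKM values in 5911 single-transcript genes, and 96.11% to 97.97% of the 947 to 2786 such values per sample that came to under 10 reads lay within 2% of a whole number. Depth limits how firmly genes of a few reads can be compared.

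Samples were grouped by their labels. Values were compared as log2(RPKM + 1) with limma 3.58.1 in R 4.3.3 (trended moderated variances, Benjamini-Hochberg adjustment over all genes tested, threshold 0.05), so changes of genes near or below 1 RPKM are understated. Genes above 0 RPKM in at least 2 fitted samples were tested, 19240 in the fit of the 12 GFP-positive samples and 22179 in the fit of all 24. Within a culture, fractions that carried one number met the criterion for pairs: deviations from the means of the groups correlated in 6 of 6 cases (0.38 to 0.73 in OMN and 0.42 to 0.66 in SC cultures). Across cultures the numbers did not pair the samples. The main model had no pair term, and its standard errors and p values therefore leave the pairing out. Values from a fit with the pairs as a block are given where they change a call. Figures were drawn in Python 3.11.15.

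The 10 genes, the pathway lists and the marker lists were chosen with earlier results of these data known. All 10 genes are named, and of the other pathway genes those under the threshold in a comparison of the main model. *Id4* was named after its values were seen. Marker lists for the neural crest, mesenchyme, endothelium, floor plate, dorsal neural tube and neural progenitors were also summed. Gene positions were read from GENCODE M21 (GRCm38). The alternatives tried were another offset, filters, scaling, blocks, sample weights, a term for replicates 5 and 6, subsets of replicates and each sample left out.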

Additional observations from a re-analysis of the deposited data

Results flagged for a closer look

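In 5 of the 40 groups of 6 values (10 genes in 4 groups, on the log2(RPKM + 1) scale), 1 sample stood far from the others by Dixon's criterion, where chance flags about 1 in 20 groups. That rate does not hold for 3 of them, in which the other 5 values were all 0 and any value above 0 stands apart. *Bmp2* was at 0.458 RPKM in OMN GFP-positive sample 2 and at 0 in the other samples of its group. *Bmp5* was at 0.412 RPKM in OMN GFP-negative sample 5 (others 0 to 0.04), at 0.107 RPKM in SC GFP-positive sample 2 (others 0) and at 0.293 RPKM in SC GFP-negative sample 2 (others 0), where the spinal values rest on 1 and 2 recovered reads. *Smad6* was at 2.24 RPKM in SC GFP-positive sample 4 (others 0 to 0.361).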

How the results depend on the processing

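The log2 changes given for the 10 genes kept their direction under the alternatives run, except the spinal step of *Id2*, which did not pass and was -0.16 in replicates 5 and 6. Depth limits *Bmp5*, *Smad6*, *Bmp2* and *Nog*, which rested on a median of at most 28 recovered reads in each group, and for *Bmp4*, *Id2* and *Id3* reads could not be recovered. With the replicate number as a block, 73 genes passed between the GFP-positive groups, 563 between the GFP-negative groups, 2361 and 416 between the OMN and SC fractions and 133 for the interaction (main values 116, 213, 1364, 272 and 71), and 1 member passed between the GFP-negative groups (*Bmp7*, limma adjusted p = 0.0366) and 2 between the spinal fractions. Under this block the *Rgmb* and *Fstl1* calls between the GFP-positive groups were lost (limma adjusted p = 0.0749 and 0.131). With blocks of culture and replicate pairs, 3644, 649 and 453 genes passed between the OMN fractions, between the SC fractions and for the interaction, with 1 member for the last. The blocks changed no other member's call than those given.

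With sample quality weights, 260, 650, 3795, 484 and 240 genes passed in the order above. Between the OMN fractions 5 of 10 members passed then, *Id2* and *Id3* among them, where 3795 of 22179 genes passed. With a term for replicates 5 and 6, 191, 367, 2116, 441 and 123 genes passed, and 1 member between the GFP-negative groups (*Bmp7*, limma adjusted p = 0.0458). In replicates 1 to 4 alone, 30, 39, 476, 1 and 10 genes and 0 members passed. An offset of 0.1 RPKM gave 229 genes between the GFP-positive groups and 0 members between the spinal fractions, and a fit of all 24 samples gave 342 genes between the GFP-positive groups. Without SC GFP-negative sample 2 and both spinal samples of pair 4, 573, 649 and 270 genes passed between the GFP-negative groups, between the spinal fractions and for the interaction, with 2, 2 and 1 members, and *Id2* and *Id3* passed between the OMN fractions as before (limma adjusted p = 0.00882 and 0.0151). A stricter filter, no filter and median-of-ratios scaling changed no member's call. The *Acvr2a* call was lost under that scaling (limma adjusted p = 0.0705), and the *Fstl1* call with no filter (0.0802) and in the fit of all 24 samples (0.118). In replicates 1 to 4 the *Fst* call and both calls between the GFP-positive groups were lost (limma adjusted p = 0.307, 0.277 for *Rgmb* and 0.314 for *Fstl1*). The causes of these changes were not tested.

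With each sample left out in turn, 67 to 181, 115 to 444, 1017 to 1558, 186 to 634 and 41 to 234 genes passed in the order above, and 0, 0 to 3, 0 to 2, 0 to 3 and 0 to 1 members.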

Other observations

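The summed RPKM of other marker lists was as follows. Floor plate markers ranged from 4.36 to 48.5 RPKM in OMN GFP-positive, 19.8 to 121 in OMN GFP-negative, 7.28 to 98.6 in SC GFP-positive and 9.63 to 172 in SC GFP-negative samples. Dorsal neural tube and roof plate markers, the region known for BMP ligands, ranged from 0 to 1.8, 2.1 to 44.6, 0.0767 to 6.54 and 0.0703 to 4.8 RPKM in the same groups, with *Wnt3a* and *Pax3* at 0 in all OMN GFP-positive samples and *Wnt1* and *Wnt3a* at 0 in all SC GFP-negative samples. Neural progenitor markers ranged from 119 to 475, 137 to 310, 186 to 1490 and 190 to 2600 RPKM. Neural crest markers stayed at or below 5.73 RPKM, mesenchyme markers at or below 12.4 RPKM and endothelium markers at or below 12.4 RPKM in every sample. The part of any of these cell types in the values of the 10 genes was not tested.

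*Id4*, the remaining *Id* gene, was at 0.852 to 8.37 RPKM (median 2.97) in OMN GFP-positive, 0.999 to 5.23 (median 3.45) in OMN GFP-negative, 4.08 to 37.4 (median 6.43) in SC GFP-positive and 0.356 to 8.83 RPKM (median 5.5) in SC GFP-negative samples, and its groups overlapped.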
